A study of Homo sapiens with 16 samples.

Results

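The MYC, MAX and MXD network was examined through 10 genes, MYC, MAX, MXD1, MXD3, MXD4, MXI1, MNT, MLX, MGA and TRRAP. They were taken by name, for their place in the network, from the 58051 genes of the count table, and all 10 passed the filter on low counts in every comparison. MYC works as a dimer with MAX, and the dimer binds the E-box, a short DNA motif read CACGTG, where it recruits acetyltransferase complexes through the scaffold protein TRRAP and raises transcription of genes for growth, nucleotide synthesis and ribosome production. MAX also pairs with MXD1, MXD3, MXD4, MXI1, MNT and MGA, which bind the same motif and lower transcription. Most of these repressors do so through the SIN3 deacetylase complex, and MGA acts within a variant Polycomb complex. MLX stands beside MAX: it pairs with MXD1, MXD4 and MNT and with the glucose-sensing factors MondoA and ChREBP. The balance between MYC and the repressors for a limited amount of MAX is a textbook account of how cells move between growth and rest, and MYC is commonly increased in prostate cancer.

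RNA-seq counts were examined from LNCaP, a human prostate cancer cell line with luminal features, at passage 20, in 2 experiments of 2 groups with 4 libraries per group. In the knockdown experiment the cells carried a control siRNA (siCtrl) or an siRNA against XBP1 (siXBP1) for 2 days. In the inhibitor experiment they received DMSO (Vehicle) or 10 µM MKC8866, an inhibitor of the RNase of IRE1α, for 24 h. IRE1α is a sensor of endoplasmic reticulum (ER) stress whose RNase splices XBP1 mRNA into the form that encodes the transcription factor XBP1s. All 16 libraries, controls included, came from cells given 30 nM thapsigargin, an inhibitor of the ER calcium pump that brings on ER stress, for 3 h before harvest. An unstressed group was not analysed here, so each difference is one between stressed cells. The libraries held between 28713607 and 34509488 counted fragments. The labels do not say whether the 4 libraries of a group came from separate cultures, so p-values measure only the spread between these libraries.

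XBP1 itself checked the knockdown labels. Its level was 362 to 426 counts per 1000000 fragments (CPM, scaled over all libraries) in the siCtrl libraries and 51.5 to 54.4 CPM in the siXBP1 libraries (log2 fold change −2.85, adjusted p = 2.92e-20). With MKC8866 it rose from 501 ± 25.6 to 577 ± 30.7 CPM (SD, n = 4 each, log2 fold change 0.20, adjusted p = 0.00493). These counts add the spliced and unspliced forms, so they do not check the action of MKC8866.

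The cells expressed the luminal prostate markers in every library, with KRT8 at 415 to 479.5 CPM and FOLH1 at 1039 to 1290 CPM. The basal keratin KRT5, the leukocyte gene PTPRC, the endothelial gene PECAM1 and the fibroblast collagen COL1A2 did not exceed 3 counts in a library. Of the other 4 markers of other cell types, KRT14 (12 to 37 counts) and TP63 (2 to 16 counts) were low, and COL1A1 (24.9 to 36.3 CPM) and ACTA2 (60.8 to 84.7 CPM) were not. In bulk RNA, fewer cells of a kind and less RNA per cell cannot be told apart.

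The E-box that the network reads was also searched in the network's own promoters, because MYC and the repressors are known to act on one another's genes. RefSeq windows on GRCh38.p14, from 250 bases before to 50 bases after an annotated start, were found for 8 of the 10 members (13 windows, none for MYC or TRRAP). The letters CACGTG, which read the same on both strands, occurred in 1 window each of MXD4, MNT and MLX, 3 of the 13 windows of members, against 7.26% of all 35116 windows. A second motif, TGACGTGG, a form of the element that XBP1s binds, was searched on both strands and occurred in 1 of the 13 windows, one of MGA, against 0.729% of all windows. That window (41660155 to 41660454) lies inside the gene, which begins at 41621224 in the annotation of the counts. The other windows of MGA, including that at the gene's first base (41620974 to 41621273), held no match. The only window of MXD1 (69914859 to 69915158) also lies inside its gene, which begins at 69897688. The stretches that hold these matches are printed 5′ to 3′ on the strand of the gene, with the motif in capitals, and stop at the first exon base of the annotation, except that of MGA, which is a 30-base site that reaches into an exon. They lie at chr4:2262295-2262359 (MXD4, minus strand), chr17:2401119-2401310 (MNT, minus strand), chr17:42566850-42567067 (MLX, plus strand) and chr15:41660375-41660404 (MGA, plus strand). The motifs begin 238, 193, 50 and 10 bases before the annotated start of their own window, which for MGA is a start inside the gene.
MXD4: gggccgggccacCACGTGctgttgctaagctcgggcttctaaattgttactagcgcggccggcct
MNT: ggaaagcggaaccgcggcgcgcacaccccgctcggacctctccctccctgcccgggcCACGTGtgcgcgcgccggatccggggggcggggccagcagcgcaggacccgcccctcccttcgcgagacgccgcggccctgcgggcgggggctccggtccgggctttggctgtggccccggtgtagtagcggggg
MLX: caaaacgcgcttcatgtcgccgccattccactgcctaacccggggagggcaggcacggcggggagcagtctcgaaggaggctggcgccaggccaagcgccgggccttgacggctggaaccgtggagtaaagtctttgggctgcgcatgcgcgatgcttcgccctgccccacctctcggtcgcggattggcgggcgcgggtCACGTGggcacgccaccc
MGA: gggtaggagcgcgtgcgcggTGACGTGGac
A match describes these letters only, and binding was not measured in these data.

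After XBP1 knockdown, 8 of the 10 members differed from siCtrl at an adjusted p under 0.05, which is how a gene is called throughout. The 6 lower members were MYC, MXD1, MLX, MGA, MAX and MXD4, in order of size from −0.50 to −0.21 on the log2 scale. MXI1 and MXD3 were higher, and MNT and TRRAP were not called. Of all 21021 genes tested, 34.8% were called, 18.2% as lower and 16.5% as higher. The median log2 fold change was −0.22 over the 10 members and 0.01 over all genes tested. The 4 siXBP1 and 4 siCtrl libraries did not overlap for 7 of 10 members, against 32.3% of all genes.

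With MKC8866, 1 of the 10 members was called, the repressor MNT, as lower. MYC was the member with the largest positive difference, and it was not called in the main fit, though it was in some alternative fits given below. Of 21045 genes tested, 4.47% were called, 3.11% as lower and 1.36% as higher. The member median was −0.05 and that of all genes 0.00 on the log2 scale. The MKC8866 and Vehicle libraries overlapped for all 10 members, while they did not for 9.18% of all genes.

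**Figure D1:**
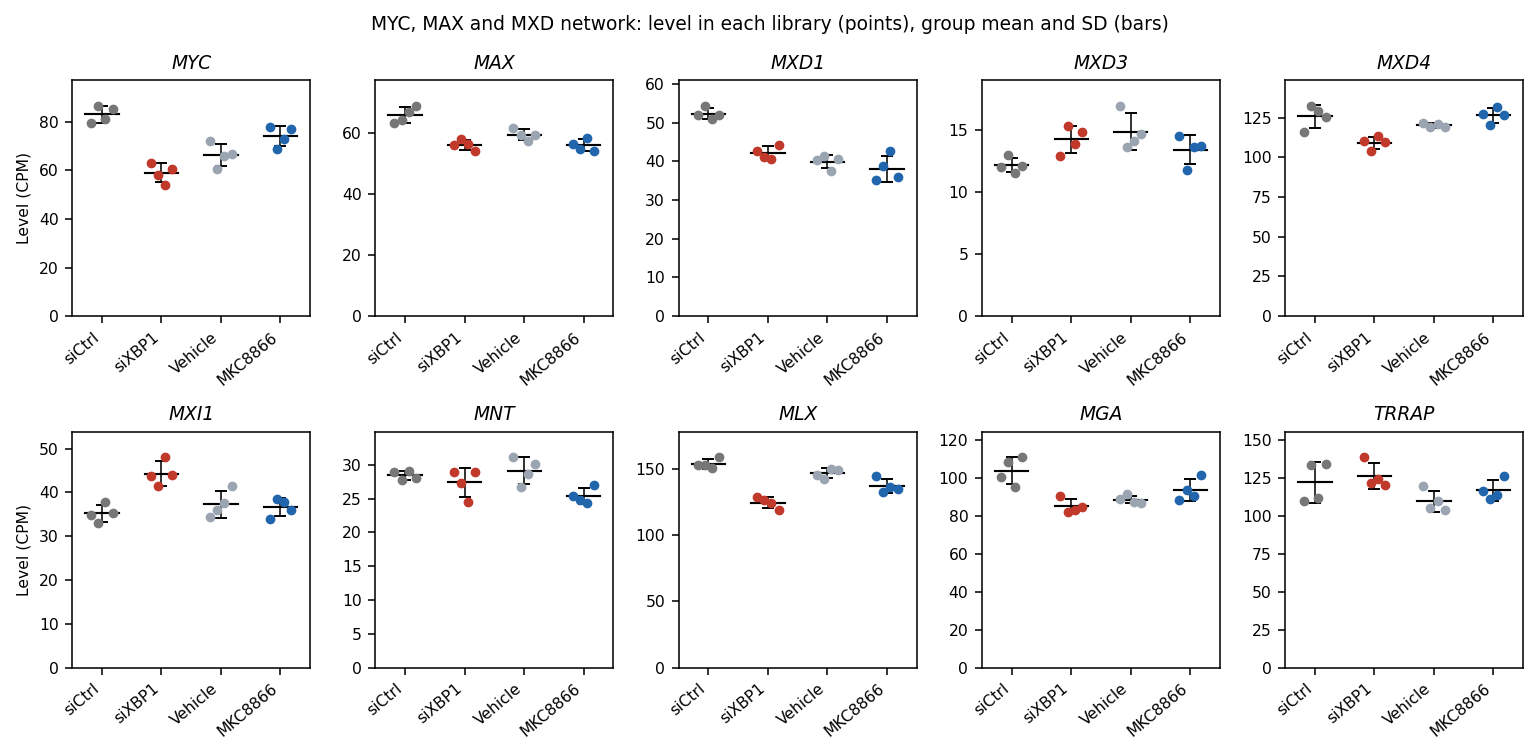
Level of each member in CPM (vertical axis from 0, 1 panel per gene) in the 4 libraries of each group (points), with the group mean (line) and SD (bar). MYC lay between 79.3 and 86.7 CPM in siCtrl and between 54.0 and 63.1 CPM in siXBP1, and the MXI1 panel shows the opposite order of those groups.

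MYC (ENSG00000136997, GRCh38 chromosome 8, 127735434 to 127741434, plus strand), the activator of the network, shares no exon base with another gene of the annotation. Its level was 79.3, 86.7, 81.2 and 85.2 CPM in siCtrl libraries 1 to 4 and 63.1, 58.0, 54.0 and 60.7 CPM in siXBP1 libraries 1 to 4. Every siXBP1 library was below every siCtrl library (log2 fold change −0.50, SE 0.0489, adjusted p = 3.24e-08). The Vehicle libraries held 71.9, 60.7, 65.7 and 66.9 CPM and the MKC8866 libraries 77.7, 68.8, 72.9 and 77.1 CPM. Those groups overlapped, since Vehicle library 1 was above MKC8866 library 2. The log2 difference of 0.16 (approximate 95% interval 0.06 to 0.26) had an adjusted p of 0.0963. It passed the threshold without MKC8866 replicate 2 (adjusted p = 0.0295) or without Vehicle replicate 1 (adjusted p = 0.0384), and with no filter on low counts (adjusted p = 0.0404). It also passed with a block for the replicate number (adjusted p = 0.000285), though the labels do not say that equal numbers pair the libraries.

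MAX (ENSG00000125952, chromosome 14, 65006174 to 65102695, minus strand) encodes the partner that MYC and its antagonists share. The siCtrl libraries held 63.2, 64.3, 66.7 and 68.9 CPM and the siXBP1 libraries 55.9, 58.0, 56.2 and 54.0 CPM. All 4 siXBP1 libraries were lower than all 4 siCtrl libraries, by 15.1% in the fit (log2 fold change −0.24, SE 0.0451, adjusted p = 0.000248). In the Vehicle libraries the level was 61.6, 59.2, 57.4 and 59.3 CPM, and in the MKC8866 libraries 56.4, 54.7, 58.4 and 54.2 CPM. That difference was −0.09 on the log2 scale (adjusted p = 0.378) and only MKC8866 library 3 reached into the Vehicle range.

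Among the repressors, MXD1 (ENSG00000059728, chromosome 2, 69897688 to 69942945, plus strand), known as a gene of differentiating cells, fell after knockdown. Levels of 51.9, 54.4, 51.0 and 52.0 CPM in siCtrl stood against 42.6, 41.2, 40.6 and 44.3 CPM in siXBP1, with no overlap (log2 fold change −0.31, SE 0.0466, adjusted p = 1.2e-05). The inhibitor experiment gave 40.3, 41.5, 37.4 and 40.5 CPM in Vehicle and 35.1, 38.7, 42.6 and 35.9 CPM in MKC8866. MKC8866 library 3 was above every Vehicle library, and the difference of −0.07 on the log2 scale was not called (adjusted p = 0.651). The siXBP1 levels stood within or just above those of Vehicle, and the siCtrl libraries were the group that stood apart.

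MXD4 (ENSG00000123933, chromosome 4, 2247432 to 2262294, minus strand), the repressor with the highest level per length, shares no exon base with another gene. It was at 116, 133, 129 and 126 CPM in siCtrl and at 110.0, 104, 113 and 109 CPM in siXBP1. The groups did not overlap, with a log2 fold change of −0.21 (SE 0.0447, adjusted p = 0.000736). Vehicle libraries were close together at 122, 119, 121 and 119 CPM, and MKC8866 libraries at 127, 120.3, 132 and 127 CPM reached above them. The inhibitor difference was 0.07 on the log2 scale (adjusted p = 0.419).

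MXI1 (ENSG00000119950, chromosome 10, 110207605 to 110287365, plus strand), also known as MXD2, moved the other way. It rose from 34.9, 33.0, 37.8 and 35.4 CPM in siCtrl to 43.7, 41.5, 48.1 and 44.0 CPM in siXBP1. All siXBP1 libraries were above all siCtrl libraries (log2 fold change 0.32, SE 0.0562, adjusted p = 7.75e-05). The Vehicle libraries at 34.3, 35.9, 37.6 and 41.5 CPM and the MKC8866 libraries at 34.0, 38.5, 37.9 and 36.1 CPM covered nearly the same range. The log2 difference was −0.03 (adjusted p = 0.871) and was 0.02 without Vehicle replicate 4.

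MXD3 (ENSG00000213347, chromosome 5, 177301461 to 177312757, minus strand) had the lowest level of the 10, with 359 to 503 counts in a library. It was at 12, 13, 11.6 and 12.1 CPM in siCtrl and 12.9, 15.3, 13.9 and 14.9 CPM in siXBP1, and siXBP1 library 1 lay just below siCtrl library 2. The log2 fold change of 0.22 (SE 0.0724) was called at an adjusted p of 0.0185. That call was lost without siCtrl replicate 3 (adjusted p = 0.0503), siXBP1 replicate 2 (0.0668) or siXBP1 replicate 4 (0.0558). Its exons overlap those of RAB24 on the same strand and of PRELID1 on the opposite strand over 40.4% of their 5154 bases, where no fragment was counted for any gene. Vehicle libraries were at 17, 13.6, 14.2 and 14.7 CPM and MKC8866 libraries at 14.5, 11.8, 13.7 and 13.7 CPM, which overlapped (log2 difference −0.15, adjusted p = 0.383).

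MNT (ENSG00000070444, chromosome 17, 2384060 to 2401118, minus strand), a repressor made in resting and dividing cells alike, was the member called with MKC8866. The Vehicle libraries held 31.2, 26.7, 28.6 and 30.2 CPM and the MKC8866 libraries 25.4, 24.8, 24.4 and 26.9 CPM. The highest MKC8866 library was above the lowest Vehicle library, and the other libraries did not cross. The log2 fold change was −0.20 (SE 0.0583, adjusted p = 0.0487). In 6 of the 8 fits with 1 library removed the call was lost: MKC8866 replicate 1 (adjusted p = 0.0833), 2 (0.0583) or 3 (0.161), or Vehicle replicate 1 (0.159), 3 (0.0842) or 4 (0.149). After knockdown the levels were 28.9, 27.7, 29.1 and 28 CPM in siCtrl and 29.0, 27.3, 24.5 and 28.9 CPM in siXBP1. The groups overlapped, and the difference of −0.06 had an approximate 95% interval of −0.17 to 0.06 on the log2 scale (adjusted p = 0.524).

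MGA (ENSG00000174197, chromosome 15, 41621224 to 41773081, plus strand), which also carries a T-box DNA-binding domain, was lower after knockdown. The siCtrl libraries held 100.1, 108, 95.2 and 111 CPM and the siXBP1 libraries 90.1, 82.0, 83.0 and 84.7 CPM. There was no overlap (log2 fold change −0.29, SE 0.0483, adjusted p = 4.66e-05). In Vehicle the levels were 88.8, 91.3, 87.2 and 86.7 CPM, and in MKC8866 they were 88.0, 93.5, 90.4 and 101 CPM. MKC8866 library 4 was the highest of these, and the difference of 0.08 on the log2 scale was not called (adjusted p = 0.473).

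MLX (ENSG00000108788, chromosome 17, 42567068 to 42573239, plus strand), the partner of MondoA, had the highest level per length of the 10. It was at 153, 153, 150.4 and 159 CPM in siCtrl and at 129, 126, 124 and 119 CPM in siXBP1. The groups were far apart for their spread (log2 fold change −0.31, SE 0.0397, adjusted p = 1.83e-06). Vehicle libraries were at 145, 142, 150.0 and 149 CPM and MKC8866 libraries at 145, 132, 136 and 135 CPM. Only MKC8866 library 1 reached the Vehicle range, and the log2 difference of −0.10 had an adjusted p of 0.233. With a block for the replicate number, which the labels do not say pairs the libraries, MLX was called lower (adjusted p = 0.0102). Exons of PSMC3IP on the opposite strand cover 18.1% of its exon bases.

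TRRAP (ENSG00000196367, chromosome 7, 98877933 to 99013243, plus strand), the scaffold through which MYC meets acetyltransferases, was not called in either experiment. In siCtrl it was at 109, 133, 112 and 134 CPM, so that these replicates fell into a low and a high pair, the high pair being libraries 2 and 4. The siXBP1 libraries held 139, 122, 124 and 119.9 CPM, within or just above the span of siCtrl (log2 difference 0.04, interval −0.07 to 0.16, adjusted p = 0.642). The Vehicle libraries were at 119, 105, 109 and 104 CPM and the MKC8866 libraries at 116, 111, 113 and 126 CPM. Here too the groups overlapped, with a log2 difference of 0.09 (adjusted p = 0.41). MYC and MGA were likewise highest in siCtrl libraries 2 and 4, which were also the deepest of their group. The part of depth in these levels was not tested.

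**Figure D2:**
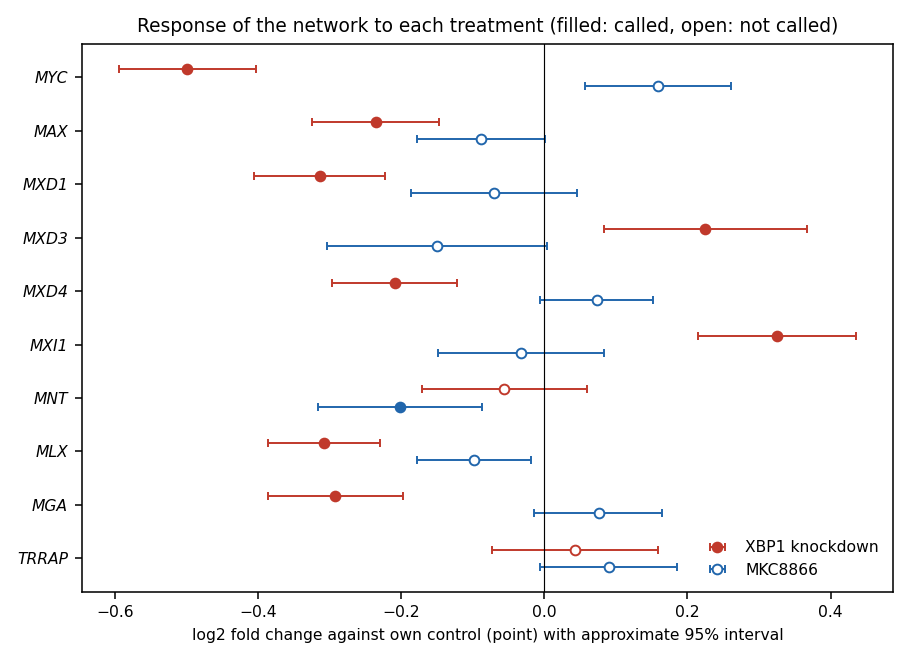
Log2 fold change of each member against its own control (horizontal axis) after XBP1 knockdown (red) and with MKC8866 (blue), with approximate 95% intervals. Filled points are called and open points are not, and the points of MYC lie on opposite sides of 0, at −0.50 and 0.16.

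To ask whether the treatments acted alike on the network, the knockdown response was compared with the MKC8866 response in 1 fit of all 16 libraries. The responses differed for 7 of 10 members, 5 with the knockdown response the lower one and 2 with it the higher one, against 23.3%, 12.7% and 10.6% of 20357 genes. The difference was −0.65 for MYC (adjusted p = 5.65e-08), −0.36 for MGA (0.000123), −0.28 for MXD4 (0.000571), −0.24 for MXD1 (0.0191) and −0.21 for MLX (0.00533). It was 0.38 for MXD3 (adjusted p = 0.0107) and 0.36 for MXI1 (0.00196). MYC, MXD4 and MGA were called lower after knockdown and had positive, uncalled values with MKC8866. For MXD1 the call was lost without MKC8866 replicate 3 (−0.18, adjusted p = 0.0673). MAX (−0.14, adjusted p = 0.0897), MNT (0.15, 0.218) and TRRAP (−0.04, 0.763) were not called, and the TRRAP value was 0.00 without siCtrl replicate 4. The experiments differed in transfection, pretreatment time and control, so the kind of inhibition and the experiment cannot be told apart.

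The 2 control groups were themselves compared, since they set the base of each response. Between siCtrl and Vehicle 5 of 10 members differed, 4 higher in siCtrl and 1 lower, against 15%, 7.65% and 7.39% of 20357 genes. MXD1 was higher by 0.38 on the log2 scale (adjusted p = 5.8e-06), MYC by 0.32 (6.3e-05), MGA by 0.22 (0.00141) and MAX by 0.14 (0.0265), and MXD3 fell by 0.30 (0.00734). The libraries of these control groups did not overlap for 6 of 10 members, against 17.5% of all genes. The MAX call was lost without siCtrl replicate 3 or 4, Vehicle replicate 2, 3 or 4, or the filter on low counts, with adjusted p up to 0.103. The MXD3 call was lost without Vehicle replicate 1 (adjusted p = 0.0503). TRRAP, at 0.15 and an adjusted p of 0.0963, was called without siCtrl replicate 1 (0.0284) or 3 (0.046) or Vehicle replicate 1 (0.0376), and with no filter on low counts (0.0135).

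Across all 4 groups, 5 of 10 members had their highest mean in siCtrl and 4 had their lowest in siXBP1. The order of means for MYC was siCtrl (83.1 ± 3.43 CPM), MKC8866 (74.1 ± 4.16), Vehicle (66.3 ± 4.6) and siXBP1 (59.0 ± 3.91; SD, n = 4 each). Only the first step in that order was free of overlap, as MKC8866 overlapped Vehicle and Vehicle overlapped siXBP1. MAX and MXD1 likewise had siCtrl alone on top, while MLX had siCtrl alone on top and siXBP1 alone at the bottom. For MXD4 the lowest group, siXBP1, was the one that stood apart. For MXD3, MXI1, MNT, MGA and TRRAP each group overlapped its neighbour in the order. The siXBP1 libraries overlapped those of Vehicle for 7 of 10 members, all but MXD4, MLX and TRRAP.

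Levels between genes were compared per length, as CPM per kilobase of exon (FPKM). Averaged over the 16 libraries, MLX was at 33.0, MYC at 23.5, MXD4 at 17.1 and MAX at 13.4 FPKM. TRRAP (8.97), MXI1 (8.33), MXD1 (6.79) and MGA (5.25 FPKM) followed, and MNT (3.16) and MXD3 (2.65 FPKM) were lowest. MLX stood above 92.6% of the genes tested and MXD3 above 47.2%. Neighbours in this order overlapped in their ranges over the 16 libraries, except at 2 steps: MAX (12.2 FPKM or more) lay above TRRAP (10.5 or less), and MGA (4.64 or more) above MNT (3.57 or less). Within each single library, MLX was above MYC, MYC above MXD4 and MXD4 above MAX. The order ignores isoforms and the bases shared with other genes, which lower the value of MXD3 and MLX.

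**Figure D3:**
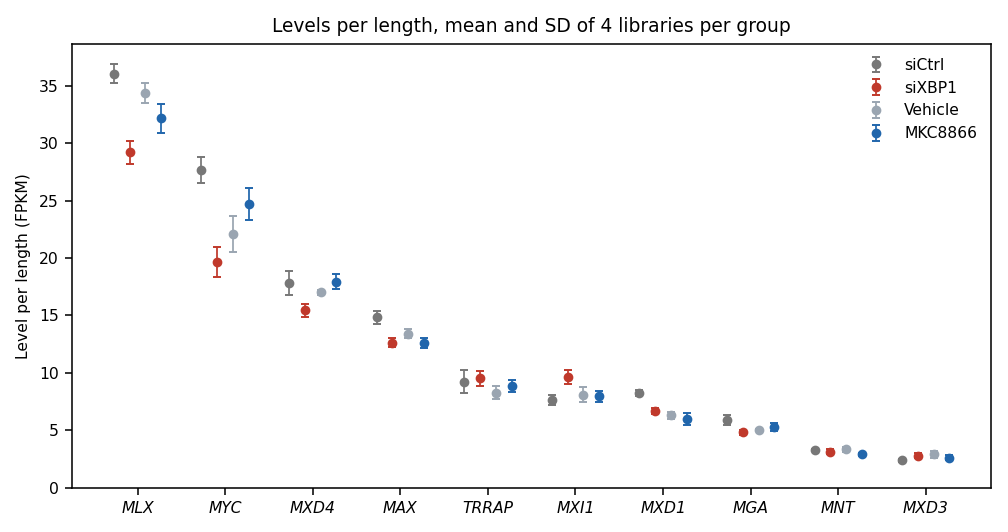
Level per length in FPKM (vertical axis from 0) of the 10 members, ordered by their mean over 16 libraries, as the mean (point) and SD (bar) of 4 libraries per group. MLX and MYC lead, and the 6 antagonists MXD4, MXI1, MXD1, MGA, MNT and MXD3 fall between 17.1 and 2.65 FPKM.

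The summed level of the 6 antagonists was set against MYC as a description of the makeup of the network, with no test. The sum was 45.2 ± 1.21 FPKM in siCtrl, 42.4 ± 1.01 in siXBP1, 42.7 ± 0.680 in Vehicle and 42.7 ± 1.13 in MKC8866 (SD, n = 4 each). The sum varied less than MYC, which ranged from 27.7 ± 1.14 FPKM in siCtrl to 19.7 ± 1.30 in siXBP1. The siCtrl sums (43.5 to 46.34 FPKM) lay above those of siXBP1 (40.95 to 43.1) and just above those of Vehicle (42.03 to 43.46). They overlapped those of MKC8866 (41.66 to 44.14). The sum adds members that fell and members that rose after knockdown. The ratio of the sum to MYC was 1.6 to 1.68 in siCtrl, 2.03 to 2.39 in siXBP1, 1.79 to 2.08 in Vehicle and 1.61 to 1.83 in MKC8866. The siXBP1 libraries had the highest ratios apart from an overlap with Vehicle. Protein amounts and dimers were not measured here.

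The other genes of the family were few. MYCN, the neural form of MYC, had at most 2 counts in a library and was not tested. MYCL, the paralogue first found in lung cancer, fell by 0.28 after knockdown (adjusted p = 0.0363) and MLXIP, which encodes MondoA, by 0.13 (0.0332). Both calls were lost without siCtrl replicate 2 or siXBP1 replicate 2 or 4, and at least 1 was lost in each other fit that left out a library. The MYCL call was also lost in DESeq2 (adjusted p = 0.064) and with no filter (0.063), and that of MLXIP in the fit of all 16 libraries (0.0642). MLXIPL, which encodes ChREBP, rose from 3.46 ± 0.376 to 5.49 ± 0.522 CPM (SD, n = 4 each, log2 fold change 0.66, adjusted p = 7.41e-05). With MKC8866 the log2 differences were 0.21 for MYCL (adjusted p = 0.325), 0.00 for MLXIP (0.995), whose sign changed with the scaling, and −0.08 for MLXIPL (not called).

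Beside MYC on its chromosome, the long noncoding gene PVT1 was lower after knockdown, from 44.4 ± 2.27 to 34.6 ± 2.80 CPM (SD, n = 4 each, log2 fold change −0.36, adjusted p = 3.67e-05). The low CASC11 had a larger but imprecise difference (−0.53, SE 0.325, adjusted p = 0.23). With MKC8866 the differences were 0.02 for PVT1 (adjusted p = 0.936) and 0.04 for CASC11 (0.977), and both changed sign in fits that left out 1 library: PVT1 without MKC8866 replicate 1 (−0.03) or Vehicle replicate 2 (−0.01), CASC11 without MKC8866 replicate 1 (−0.10) or 3 (−0.02) or Vehicle replicate 3 (−0.16) or 4 (−0.03).

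Of the 6 MYC targets that the study chose and followed, which are no independent evidence of direction, 4 were lower after knockdown. Over all genes tested, 18.2% were called lower. PPAT, the first enzyme of purine synthesis, fell by 0.60 (adjusted p = 4.12e-10), and CDC25A, a phosphatase that promotes entry into S phase, by 0.58 (5e-09). MTHFD1 of folate metabolism fell by 0.40 (1.53e-08) and SHMT1, of the same pathway, by 0.12 (0.0214). CDC25A was at 61.2 ± 1.45 CPM in siCtrl, 41.1 ± 2.79 in siXBP1, 37.5 ± 1.52 in Vehicle and 33.5 ± 1.03 in MKC8866 (SD, n = 4 each). Its siXBP1 mean was thus above that of Vehicle, and siCtrl stood apart. For PPAT, MTHFD1 and SHMT1 the siXBP1 mean was the lowest of the 4 groups. PCNA (−0.10, adjusted p = 0.112) and ATF4 (−0.05, 0.382) were not called. The SHMT1 call was lost without siCtrl replicate 2 or 3 or siXBP1 replicate 1, 2 or 4 (adjusted p up to 0.102) and with no filter on low counts (0.0623), and PCNA was called without siXBP1 replicate 3 (0.0169). With MKC8866, ATF4, a stress-response factor, was lower (−0.17, adjusted p = 0.00715), and CDC25A (−0.17, 0.0687) and PPAT (−0.13, 0.141) were not called. Both were called without MKC8866 replicate 2 (0.0478 and 0.0305) and with a block for the replicate number (0.00348 and 0.00133). The values of PCNA (−0.08), MTHFD1 (0.00) and SHMT1 (0.03) were not called.

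A wider list of 30 genes that MYC is known to activate held 29 tested genes. After knockdown 10 were lower and the others were not called, with a median log2 fold change of −0.07. Over all genes tested, 34.8% were called, 18.2% as lower and 16.5% as higher. Among the called genes, the largest falls were in POLR1B, a subunit of RNA polymerase I (−0.72, adjusted p = 1.95e-10), and TFRC, the transferrin receptor (−0.32, 1.46e-06). With MKC8866, EIF4A1, a translation factor (−0.58, adjusted p = 0.00015), and GNL3, a nucleolar protein (−0.24, 0.000479), were lower. The median was −0.03, and 3.11% of all genes tested were called lower. EIF4A1 was low, at 6.486 ± 0.329 CPM in Vehicle and 4.335 ± 0.195 CPM in MKC8866 (SD, n = 4 each). Whether it shares exon bases with other genes, which add no count, was not examined.

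Among 8 genes that MYC is known to repress, 3 were lower and 2 higher after knockdown, with a median of −0.07. The shares over all genes tested were 18.2% lower and 16.5% higher. NDRG1, a stress-regulated gene (−0.56, adjusted p = 9e-09), TXNIP, an inhibitor of thioredoxin (−0.44, 1.72e-07), and CDKN1B (−0.34) were the lower ones. GADD45A (0.26, adjusted p = 0.000669) and CDKN1A (0.19, 0.000445), which restrain the cell cycle, were higher. With MKC8866, CDKN1B, which encodes the cycle inhibitor p27, was lower (−0.39, adjusted p = 3.22e-07) and TXNIP higher (0.28, 1.28e-05). TXNIP and ARRDC4 are also the classical targets of MLX with MondoA, and after knockdown they parted: ARRDC4 rose by 0.39 (adjusted p = 2.81e-05) while TXNIP fell. With MKC8866 ARRDC4 was not called (0.14, adjusted p = 0.278).

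TRRAP serves 2 acetyltransferase complexes, and most of their subunits were examined. Over all genes tested, 18.2% were called lower and 16.5% higher after knockdown. Of 17 TIP60/NuA4 genes, 4 were lower and 6 higher after knockdown (median 0.07). The reader MORF4L1 (−0.75, adjusted p = 2.48e-09) and the scaffold EPC2 (−0.68, 8.54e-11) fell most, and MRGBP (0.53, 6.07e-07) and MBTD1 (0.50, 1.59e-06) rose most. Of 18 SAGA genes, 4 were lower and 5 higher (median −0.01). TADA1, an adaptor, fell by 1.03 on the log2 scale (adjusted p = 3.07e-11), the largest change in these lists of cofactors, and TAF12 by 0.33 (7.82e-05). TAF10 (0.30, adjusted p = 0.00801) and the deubiquitylase subunit ATXN7L3 (0.25, 0.000131) rose, the first with no call in DESeq2 (adjusted p = 0.0715). With MKC8866, MORF4L2 (−0.23, adjusted p = 0.000213) and TADA2B (−0.22, 0.00223) were lower and the acetyltransferase KAT2B higher (0.20, 0.0216). The KAT2B call was lost without MKC8866 replicate 1 or Vehicle replicate 1, 3 or 4 (adjusted p up to 0.139). After knockdown KAT2B was lower (−0.19, adjusted p = 0.00331), and MORF4L2 and TADA2B were not called.

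Of 16 genes of the SIN3 corepressor, through which MXD proteins and MNT act, 5 were lower and 5 higher after knockdown (median 0.06). The shares over all genes tested were 18.2% lower and 16.5% higher. SAP18 (−0.79, adjusted p = 6.08e-11) and ARID4A (−0.22, 0.00272) fell, and SAP30 (0.39, 0.000773) and SAP30L (0.36, 0.000111) rose. The histone chaperone RBBP4 was lower with MKC8866 (−0.18, adjusted p = 0.00929), 1 of 16 genes, and 2 were lower without MKC8866 replicate 2. RBBP4 was also among the 5 genes lower after knockdown (−0.22, adjusted p = 0.000329). Over all genes tested, 3.11% were called lower with MKC8866. Of 13 genes of PRC1.6, the Polycomb complex of MGA, L3MBTL2 (−0.35, adjusted p = 1.85e-06) and CBX3 (−0.34, 3.18e-05) were lower after knockdown and RYBP higher (0.29, 9.19e-06), and 2 genes were higher without siCtrl replicate 4. Their differences with MKC8866 lay between −0.12 and 0.14.

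Genes that set the stability of MYC or partner it changed in both directions after knockdown, 4 lower and 5 higher of 12 (median 0.04). The shares over all genes tested were 18.2% lower and 16.5% higher. FBXW7, the ubiquitin ligase that marks MYC for decay, fell by 0.43 (adjusted p = 1.79e-05), and another MYC ligase, HUWE1, by 0.24 (0.00987). CIP2A, which shields MYC from a phosphatase (0.28, adjusted p = 3.75e-05), and AURKA, which shields MYC proteins from FBXW7 (0.28, 0.000103), rose. The count of lower genes rested on the setting: it was 1 in DESeq2 and without siCtrl replicate 2 or 4 or siXBP1 replicate 2, all of which lost HUWE1 (adjusted p = 0.108 in DESeq2), and 2 with no filter on low counts and without siCtrl replicate 1 or 3 or siXBP1 replicate 3 or 4. With MKC8866 the 12 values lay between −0.03 and 0.10.

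**Figure D4:**
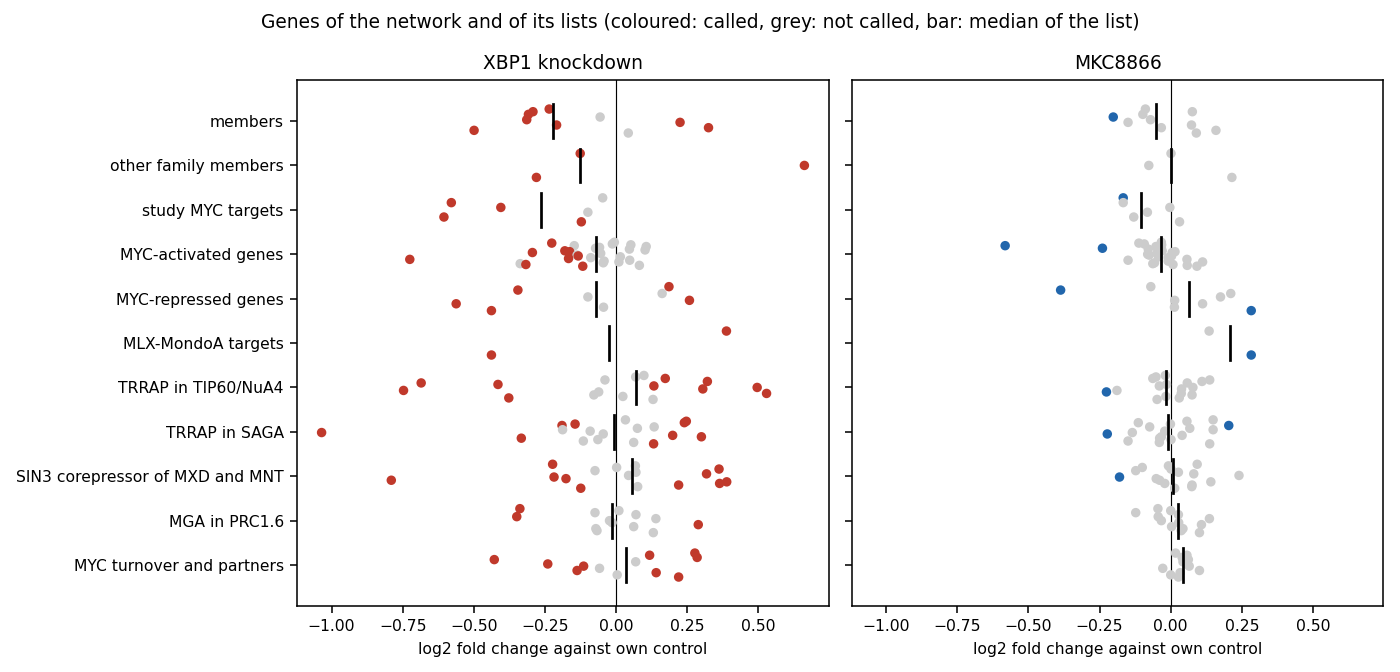
Log2 fold change against the own control (horizontal axis) of the members and of each list of network genes (rows), after XBP1 knockdown (left) and with MKC8866 (right). Points are genes, coloured where called and grey where not, and the bar is the list's median, which was −0.22 for the members after knockdown and −0.05 with MKC8866.

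Luminal markers moved with the knockdown too. The proteases TMPRSS2 (−0.89, adjusted p = 4.6e-14) and KLK3 (−0.86, 1.09e-13) fell most. With MKC8866, KLK3 was higher (0.46, adjusted p = 2.75e-08) and the keratin KRT18 lower (−0.22, 0.0015). Of the 8 markers of other cell types, 4 were tested and ACTA2, a smooth muscle actin that some tumour lines express, was lower after knockdown (−0.24, adjusted p = 0.00121). The part of these changes in the differences of the network was not tested.

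Genes with the pattern most like each member were found by Pearson's r of log2 CPM over the 16 libraries, among 15037 genes, as a description. These points share libraries, depth and the 4 groups. MYC was closest to CIPC (r = 0.966), TET3 (0.958) and SH3RF1 (0.955). MAX was closest to ATP6V0D1 (0.926), SFXN2 (0.924) and PSMB2 (0.904). MLX was closest to AKAP8 (0.960), NFX1 (0.958) and ENTPD7 (0.957). The nearest gene to MXD1 was CDC25A (r = 0.947), one of the 6 chosen MYC targets, then CEP120 (0.931) and AP1G1 (0.923). MGA went with FRYL (0.961), HIF1AN (0.945) and PHACTR4 (0.939), and TRRAP with RNF213 (0.927), EP400 (0.923) and EP300 (0.922). EP400 is the partner of TRRAP in TIP60/NuA4. The exons of RNF213, EP400 and EP300 span 28570, 18705 and 12500 bases and those of FRYL 18152, against a median of 4447 bases over the genes compared, and those of TRRAP and MGA span 13218 and 17651 bases.

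The other repressors had their own neighbours. MXD4 was closest to TBC1D9B (r = 0.934), B4GALT1 (0.933) and ZNF783 (0.932), and MXI1 to APPL1 (0.920), NADK2 (0.906) and CCDC50 (0.902). MNT was closest to CCDC142 (0.893), DDX47 (0.865) and OVOL1 (0.825). MXD3, the member with the fewest counts, had the weakest likeness, to COMMD5 (0.839), CFD (0.839) and ALKBH7 (0.817). Between members, MYC was closest to MGA (r = 0.833) and MXD4 (0.784) and farthest from MXI1 (−0.800), which was also opposite to MLX (−0.751). TRRAP and MNT had little in common with MYC (r = 0.143 and 0.165).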

How the data were processed

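RNA-seq of 16 LNCaP libraries was analysed. The authors aligned reads to GRCh38 (hg38) with STAR 2.5.2a and, per the file headers and the study's methods, summarised them with featureCounts 1.5.0 on Ensembl 85 genes. The deposited values are raw counts, not normalized. Strand was ignored in the counting although the kit was stranded, and multimapping fragments and those on 2 genes were left out, so bases shared with another gene, on either strand, add no count. Of 58051 genes, 56948 were matched to a symbol in GENCODE.

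Each treatment was tested against its own control with edgeR 4.0.16 in R 4.3.3 (TMM, quasi-likelihood F test, two-sided) after dropping genes unless each group had 1 library or more above 5 counts. A call is a Benjamini-Hochberg adjusted p below 0.05 over all genes tested. The difference of responses and siCtrl against Vehicle were contrasts in 1 fit of 16 libraries. SE was taken from the fold change and the F statistic, and approximate 95% intervals are 1.96 SE on each side. CPM used TMM library sizes over 16 libraries, and FPKM divided CPM by the union exon length of the count table. Biological variation between replicates (edgeR coefficient) was 5.40% for the knockdown and 4.97% for the inhibitor. Replicate spread more than counting thus limited the precision for the members other than MXD3. For MXD3, with 359 to 503 counts, the 2 were of similar size.

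Alternatives were DESeq2 1.42.0 (the tool of the study), its size factors in edgeR, no filter, a minimum of 10 counts per library, a block for the replicate number, a joint fit of 16 libraries, an adjusted p under 0.01, and leaving out each library. The members and lists were chosen with earlier results of these data known. All members, the whole of the short lists, and from longer lists up to 2 called genes per direction with the largest change and a mean of at least 1 CPM are named, with every called gene where a list has 3 or fewer, and the 3 most alike genes per member. CDKN1B, RBBP4, KAT2B, MORF4L2 and TADA2B after knockdown were named after their values were seen. The fits were tested on simulated data. Numbers and figures were made with numpy 2.4.6, pandas 2.3.3 and matplotlib 3.10.9. Promoter sequences are from RefSeq (GRCh38.p14). Some luminal markers are not reported here.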

Additional observations from a re-analysis of the deposited data

Results flagged for a closer look

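The response to XBP1 knockdown differed from the response to MKC8866, by the test of the difference in the 16-library fit, for 7 members. The log2 differences, knockdown minus MKC8866, were −0.65 for MYC, −0.24 for MXD1, 0.38 for MXD3, −0.28 for MXD4, 0.36 for MXI1, −0.21 for MLX and −0.36 for MGA, with adjusted p from 5.65e-08 (MYC) to 0.0191 (MXD1). For MYC the knockdown value was −0.50 (libraries not overlapping) and the MKC8866 value 0.16 (libraries overlapping). The experiments had separate controls, and siCtrl was itself above Vehicle for MYC, MXD1 and MGA and below it for MXD3. Transfection, time in culture and kind of inhibition cannot be told apart here. No single library stood apart from the other 3 of its group by Dixon's test in any of the 40 groups of a member, a test that by chance flags about 1 in 20 groups.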

How the results depend on the processing

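At the threshold of 0.05, over the alternatives that refit the data, 662 member values kept their direction and their side of the threshold, 9 became called, 17 lost a call and 2 changed sign. DESeq2, its size factors, the joint fit of 16 libraries and a minimum of 10 counts in every library changed no member call. With MKC8866, the number of members called was 1, and 2 with no filter on low counts (MYC added), 3 with the replicate block, 0 at an adjusted p under 0.01 in edgeR (3 members had an unadjusted p under 0.05), and 0 to 1 in fits that left out 1 library. The other counts were 7 to 8 after knockdown, 6 to 7 for the difference of responses and 4 to 6 for siCtrl against Vehicle when 1 library was left out, and 7, 5 and 4 at an adjusted p under 0.01. Changes of sign were in values near 0: MXI1 with MKC8866 (0.02 without Vehicle replicate 4, range −0.074 to 0.020) and TRRAP in the difference of responses (0.002 without siCtrl replicate 4, range −0.093 to 0.002). Likewise, with MKC8866, MLXIP was −0.001 with DESeq2 or its size factors and −0.002 with at least 10 counts. Leaving out 1 library gave −0.057 to 0.045 for MLXIP, −0.033 to 0.009 for MTHFD1, −0.034 to 0.042 for PVT1 and −0.156 to 0.250 for CASC11. The causes were not tested. Depth limited MXD3 most, with 359 counts in its lowest library.

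The replicate numbers were tried as a block. Same-numbered libraries of the knockdown experiment deviated together little (r 0.008 to 0.064 over 15054 genes, 0 of 8 libraries closest to their own number). In the inhibitor experiment r was 0.084 to 0.329 over 15038 genes, with 6 of 8 libraries closest to their own number and 3 of 4 pairs above 0.1. This is a hint of pairing from the data and not from the design. As not every pair was above 0.1, the numbers were not taken to pair the samples. With the replicate block, genes called with MKC8866 went from 654 lower and 287 higher to 1484 lower and 1262 higher, and after knockdown from 3836 and 3475 to 3846 and 3477. The 3 members then called with MKC8866 were MNT and MLX (−0.10, adjusted p = 0.0102) as lower and MYC (0.16, adjusted p = 2.85e-04) as higher. Of the study's MYC targets, CDC25A (−0.17, adjusted p = 0.00348) and PPAT (−0.13, adjusted p = 0.00133) were then called lower beside ATF4.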
